A study of Homo sapiens with 2 samples.

Results

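The innate sensors of nucleic acids and their 2 adaptors, 10 genes in all, were examined for CpG methylation in HEK293T cells, a human embryonic kidney line that carries the large T antigen of a simian virus. The set was fixed by gene name and holds CGAS, IFI16, AIM2, ZBP1 and TLR9, which bind DNA or, for ZBP1, left-handed nucleic acid, RIGI, IFIH1 and TLR3, which bind RNA, and the adaptors STING1 and MAVS. All 10 were found among 64440 annotated genes. Methylation had been measured by whole-genome bisulfite sequencing (WGBS), in which bisulfite turns unmethylated cytosines into bases read as T and leaves methylated ones as C. Neg, the control, was never transduced according to the study. The other library, dCas9+3A+HOXA5, from here on the targeted library, came from cells transduced with lentiviral vectors for nuclease-dead Cas9 linked to the SunTag epitope array, for an antibody fragment fused to DNMT3A that binds this array, and for a guide RNA against HOXA5. These cells were sorted for fluorescence and collected after 30 days. The treatment field gives 30 days of infection and sorting for both libraries, Neg included, against the study's account of its control, and the groups were therefore taken from the titles.

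These proteins detect nucleic acid where or in a form in which it should not occur. CGAS, on binding DNA in the cytosol, makes a cyclic dinucleotide that activates STING1 on the endoplasmic reticulum, whereas RIGI and IFIH1 bind viral RNA in the cytosol and signal through MAVS on mitochondria. TLR3 and TLR9 read double-stranded RNA and CpG-containing DNA in endosomes, IFI16 and AIM2 are related proteins with a DNA-binding HIN domain, and AIM2 assembles an inflammasome. HEK293T cells are known for little or no CGAS and STING1 protein and are therefore often used to rebuild the pathway. Methylation of a CpG-rich promoter usually accompanies silence of the gene, while methylation of gene bodies is common in active genes. RNA was not analysed here, so the levels below say nothing on expression.

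A CpG was used when it had at least 1 read in both libraries. The level of a window is the mean over its CpGs of the deposited fraction, given in percent, with the SD over CpGs (CpG SD), and the differences are in percentage points, targeted library minus Neg. Promoters were taken as 1 kb either side of the gene start and bodies from gene start to gene end, in coordinates of hg19. Methylated and other reads of a window, added up over its CpGs, were set against each other with Fisher's exact test (two-sided), with Benjamini-Hochberg adjustment over all annotated genes that had at least 5 CpGs in the window. A lower minimum held only where CpGs were kept at least 200 bp apart. A window was called when its mean differed by over 20 points and its adjusted p was under 0.01. Each group holds 1 library, so the tests compare these 2 libraries and not the conditions, and there was no replicate spread to judge a difference by. Reads at neighbouring CpGs often come from the same fragment, and intervals and p-values cover the counting of reads only.

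Coverage was thin. Neg had a mean of 3.80 reads at each listed CpG and the targeted library a mean of 2.89, and the promoters of the 10 genes held between 8 and 91 CpGs read in both libraries. As a check of the labels, the promoter of the targeted HOXA5 had 1.87% in Neg and 41.2% in the targeted library over 116 CpGs (Fisher's exact test, adjusted p = 2.13e-34). Over all CpGs read in both libraries the mean was 63.7% in Neg and 69.5% in the targeted library, a difference of 5.81 points against which the values at single genes are to be read.

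The sequences of 4 stretches from the promoter windows show the CpGs behind some of the values below and are printed 5′ to 3′ in the direction of the gene, from the GRCh37 assembly, with the coordinates of hg19. Capitals mark the CpGs that were read in both libraries. The stretch of CGAS lies on the minus strand at chr6:74161281-74161580, from 440 to 739 bases inside the gene within the coding part of exon 1, and shows CpGs that were methylated in both libraries. That of RIGI (chr9:32526207-32526506, minus strand, the 300 bases up to the start) shows unmethylated CpGs. The stretch of IFIH1 (chr2:163175195-163175349, minus strand) is the whole interval between its start and that of GCA, a gene for a calcium-binding protein on the other strand that is named for its position, and is shown for this shared interval, not for the lower values of IFIH1 inside the gene. The stretch of TLR3 (chr4:186989755-186990054, plus strand, upstream of the start) holds the CpGs that were higher in the targeted library. No annotated exon overlaps the stretches of RIGI, IFIH1 and TLR3.
CGAS: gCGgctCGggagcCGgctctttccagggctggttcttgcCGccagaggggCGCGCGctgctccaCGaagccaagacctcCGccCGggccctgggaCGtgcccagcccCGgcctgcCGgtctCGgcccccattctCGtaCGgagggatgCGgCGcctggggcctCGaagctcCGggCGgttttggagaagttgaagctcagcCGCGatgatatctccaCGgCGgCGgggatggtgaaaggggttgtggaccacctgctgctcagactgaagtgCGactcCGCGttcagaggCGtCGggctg
RIGI: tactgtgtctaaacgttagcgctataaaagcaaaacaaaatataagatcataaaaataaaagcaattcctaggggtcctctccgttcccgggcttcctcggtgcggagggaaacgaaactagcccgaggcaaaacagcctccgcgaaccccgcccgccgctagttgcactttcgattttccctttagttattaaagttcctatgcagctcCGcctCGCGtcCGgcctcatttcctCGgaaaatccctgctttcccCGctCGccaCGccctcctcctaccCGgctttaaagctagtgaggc
IFIH1: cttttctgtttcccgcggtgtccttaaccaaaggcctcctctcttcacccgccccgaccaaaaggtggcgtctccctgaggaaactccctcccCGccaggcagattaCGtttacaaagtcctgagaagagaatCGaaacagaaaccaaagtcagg
TLR3: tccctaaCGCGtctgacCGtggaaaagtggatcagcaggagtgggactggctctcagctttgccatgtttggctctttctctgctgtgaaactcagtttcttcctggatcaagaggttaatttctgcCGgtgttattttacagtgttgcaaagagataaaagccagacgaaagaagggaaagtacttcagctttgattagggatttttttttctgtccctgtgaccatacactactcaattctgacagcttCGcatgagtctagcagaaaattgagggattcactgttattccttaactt

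In the CGAS stretch all 31 CpGs were read in both libraries, with 158 of 169 methylated reads in Neg and 77 of 77 in the targeted library. From 579 to 734 bases inside the gene, each CpG had only 1 read in the targeted library. The stretch is a part of the promoter window, which as a whole was not fully methylated in the targeted library. In the RIGI stretch, which lies before the start and not inside the gene, the 9 capital CpGs of 23 had 2.22% and 7.27%. Only 3 of the 8 CpGs between IFIH1 and GCA were read in both, with 2 of 4 methylated reads in Neg and 2 of 9 in the targeted library. Over 5 of the 6 CpGs of the TLR3 stretch, 1 of 6 reads was methylated in Neg and 16 of 17 in the targeted library.

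Across the 10 promoters, 1 was called lower in the targeted library, that of IFIH1, and 0 were called higher. Over the 53244 promoters tested, 0.588% were called lower and 2.31% higher. At an adjusted p under 0.05 without a limit on size (Fisher's exact test), the share of methylated reads was higher at 2 of the 10 (10.5% of all promoters) and lower at 1 (3.47% of all). The median difference of the 10 was 4.67 points, beside 2.54 points over all promoters tested, and 7 of the 10 had a mean above that in Neg. In the bodies, 1 of the 10 was called higher, TLR3, and 0 were called lower, beside 3.81% and 0.534% of 44567 bodies tested. By adjusted p under 0.05 in Fisher's exact test, 5 bodies were higher (35.1% of all) and 2 lower (5.8% of all). Their median difference was 4.44 points, beside 4.18 points over all bodies.

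**Figure D1:**
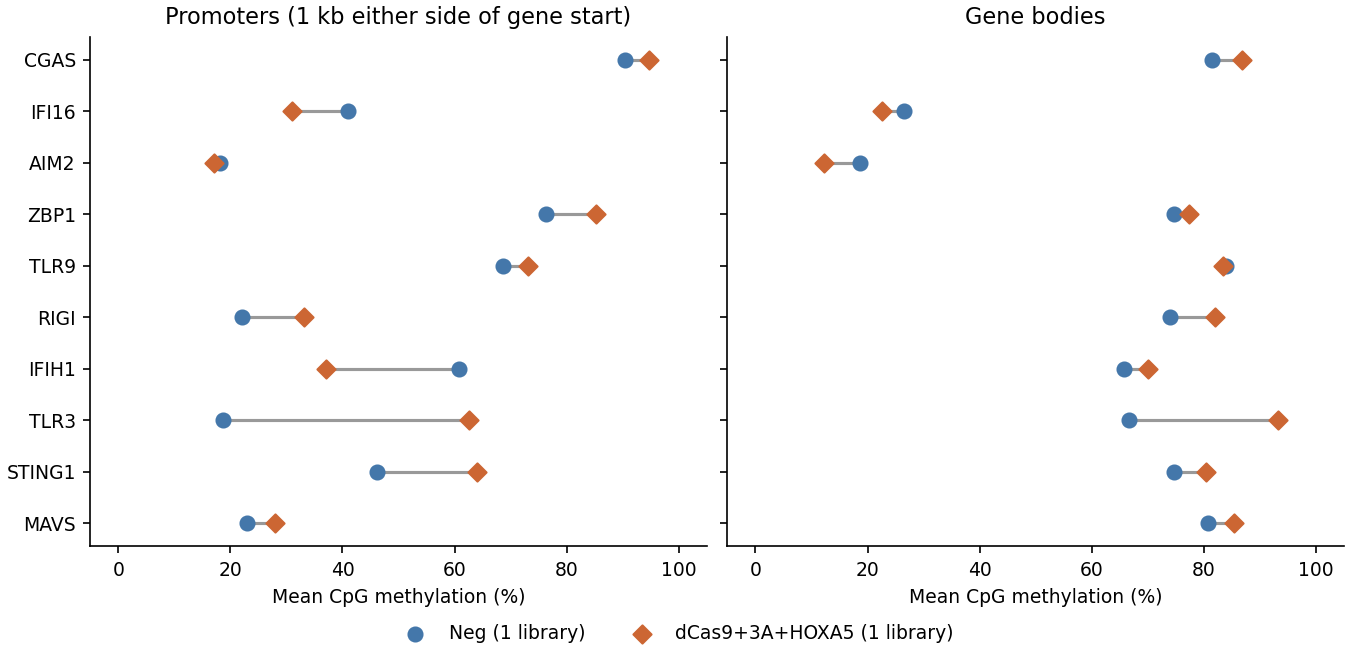
Mean CpG methylation in percent (horizontal axis) of the promoters (left) and bodies (right) of the 10 genes in Neg (circles) and dCas9+3A+HOXA5 (diamonds), 1 library each, joined by a line per gene and without error bars. CGAS was near the top in both libraries, IFI16 and AIM2 had the lowest bodies, and the long lines belong to the promoters of TLR3 (18.8% and 62.5%) and IFIH1 (60.8% and 37.2%) and to the body of TLR3 (66.7% and 93.3%).

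Among the sensors of DNA, the promoter of CGAS was the most methylated. It had 90.5% in Neg (CpG SD 18.7) and 94.8% in the targeted library (CpG SD 19.5) over 91 of its 134 CpGs. The targeted library had 239 methylated reads of 249 (95% Wilson interval 92.8 to 97.8%), and Neg 308 of 340 (87.0 to 93.3%). The promoter is rich in CpGs, with an observed to expected ratio of 0.761 over the window. Such windows were mostly unmethylated elsewhere: of 15530 promoters with at least 50 CpGs read in both libraries, 66.5% were under 20% in Neg and 12.3% over 80%. The difference of 4.31 points at CGAS did not pass Fisher's exact test (adjusted p = 0.0832). Levels were over 80% in all 4 bins of the window. The 26 CpGs within 500 bases after the start had 97% and 98.1%, and the 38 CpGs beyond them 92.1% and 94.1%. In the 500 bases before the start 11 CpGs had 83.7% and 100%, with 35 of 40 and 17 of 17 methylated reads, and farther out 16 CpGs had 80.7% and 87.5%. The body of CGAS, 38.8 kb on chromosome 6 (74123238 to 74162020), had 81.5% and 86.8% over 404 CpGs (Fisher's exact test, adjusted p = 8.47e-09). This difference of 5.30 points stood beside 5.74 points in the 100 kb on either side and 8.32 points over chromosome 6, and with CpGs at least 200 bp apart Fisher's exact test gave an adjusted p of 0.217, the largest over the alternatives.

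IFI16 and AIM2, neighbours on chromosome 1, were the least methylated bodies of the set. The body of IFI16 (158969758 to 159024945) had 26.6% in Neg (CpG SD 35.9) and 22.6% in the targeted library (CpG SD 38.2) over 220 CpGs. That of AIM2 (159031389 to 159157633) had 18.7% (CpG SD 31.7) and 12.2% (CpG SD 30.0) over 578 CpGs. This annotated body overlaps CADM3, named for its position, and mostly lies before the canonical start, while part 5 of 5 equal parts, which holds that start, had 37% and 27.2% over 91 CpGs. On reads, AIM2 fell from 398 of 2257 methylated to 200 of 1691 (Fisher's exact test, adjusted p = 2.83e-06). IFI16 fell from 244 of 857 to 121 of 592 (Fisher's exact test, adjusted p = 0.00217). Neither difference exceeded 20 points, and both had the opposite sign to the 5.77 points over chromosome 1. The 100 kb on either side also had lower means in the targeted library. The differences were -6.89 points around IFI16 and -4.89 points around AIM2. Because these genes lie close together, the surroundings of AIM2 include the whole body of IFI16. Those of IFI16 include much of the body of AIM2. The values of the surroundings therefore partly repeat those of the bodies and are not independent of them. With CpGs at least 200 bp apart, which lowers the sharing of fragments, AIM2 had 17.2% and 8.89% over 231 CpGs (Fisher's exact test, adjusted p = 6.68e-05; over all alternatives 0.0233 or less), whereas IFI16 had an adjusted p of 0.153 (largest over its alternatives 0.577, with a minimum of 5 reads).

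The low level was not confined to these 2 genes. In 20-kb tiles around the canonical AIM2 transcript, an unbroken run of 80 tiles, 1600 kb long, stayed under 50% in Neg (158106556 to 159706555). Its 5208 CpGs had 20.7% in Neg and 18.8% in the targeted library, and chromosome 1 as a whole had 65.9% and 71.7%. The run holds 33 protein-coding genes, named here after their values were seen, among them MNDA and PYHIN1 for related HIN-domain proteins, the CD1 genes for lipid antigen presentation, and olfactory receptor genes. Methylation was lower in the targeted library in 52 of the 80 tiles, a count for which no share over the rest of the genome was taken. Most of the tiles examined on either side of the run were higher in the targeted library. Within the run, the highest tile of the targeted library was at 61.0%. The run was bounded by its level in Neg, so its low mean there follows partly from that choice.

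**Figure D2:**
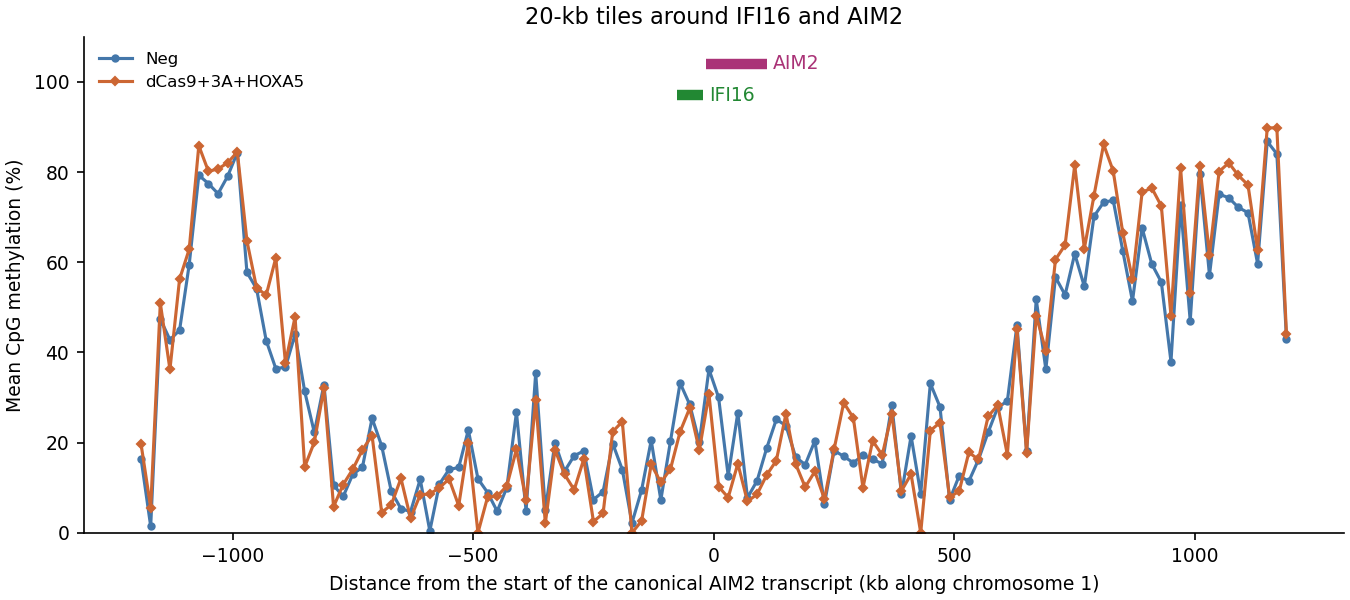
Mean CpG methylation in percent (vertical axis) of 20-kb tiles in Neg (circles) and dCas9+3A+HOXA5 (diamonds), 1 library each, by distance in kb along chromosome 1 from the start of the canonical AIM2 transcript; the bars at the top mark the bodies of IFI16 and AIM2. Both genes lie in a trough of 1600 kb that averaged 20.7% (Neg) and 18.8% (dCas9+3A+HOXA5).

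The starts of both genes depend on the transcript chosen. The annotated start of AIM2 lies 111077 bp before that of its canonical transcript, and the 2 starts of IFI16 are 9939 bp apart. At the annotated start, AIM2 had 18.2% in Neg and 17.1% in the targeted library over 32 CpGs, with 15 of 78 and 17 of 106 methylated reads, and the direction turned with a minimum of 3 reads (3.43 points) and within 500 bp of the start (2.81 points). Spacing CpGs by at least 200 bp gave -33.3 points over 5 CpGs and methylated reads of 6 in 15 and 0 in 18 (Fisher's exact test, adjusted p = 0.226; over its alternatives 0.0480 to 0.912). At the canonical start it had 52.5% and 18.8% over 8 CpGs, with 21 of 38 and 4 of 22 methylated reads. The share of reads there was lower by 37.1 points (95% Newcombe interval of the difference -55.3 to -11.5; Fisher's exact test, adjusted p = 0.0480), which did not meet the threshold for a call. At an adjusted p under 0.05, 3.51% of all canonical promoters were lower. The annotated start of IFI16 had 41.1% and 31.0% over 21 CpGs, but the share of methylated reads was higher in the targeted library, with 20 of 61 against 11 of 91 (Fisher's exact test, adjusted p = 0.0307). Within 500 bases after the start, 3 of 62 reads were methylated in Neg and 2 of 20 in the targeted library. More than 500 bases before it, 8 CpGs had 7 of 9 and 16 of 25, so few of the Neg reads came from the methylated end. The direction at this promoter therefore depended on how CpGs were weighted. At the canonical start of IFI16, 9 CpGs had 25.9% and 4.44%, and methylated reads were 6 in 24 and 2 in 32 (Fisher's exact test, adjusted p = 0.225). Over all 10 canonical starts, 1 promoter was called lower, again IFIH1 (0.606% of all canonical promoters), and 0 were called higher (2.27% of all). By adjusted p under 0.05, Fisher's exact test, 2 were lower, IFIH1 and AIM2, and 1 was higher, TLR3 (10.4% of all).

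The promoter of ZBP1, a sensor of left-handed nucleic acid that can trigger cell death, had 76.4% in Neg (CpG SD 37) and 85.2% in the targeted library (CpG SD 24.3) over 27 CpGs. Its share of methylated reads, 93 of 117 and 91 of 108, differed by 4.77 points (95% Newcombe interval -5.45 to 14.7). The body, on chromosome 20 (56178902 to 56195632), had 74.7% and 77.4% over 202 CpGs. TLR9, the endosomal receptor for CpG DNA, had 68.6% and 73.1% over the 13 CpGs of its promoter, with 41 of 60 and 26 of 39 methylated reads, whose share differed by -1.67 points. The means differed by -14.7 points within 500 bp of the start and by -21.3 points with CpGs at least 200 bp apart, where 4 CpGs were left. Its body, 4.57 kb on chromosome 3 (52255096 to 52259661), had 84.0% and 83.4% over 113 CpGs, and the interval of the difference in reads ran from -4.66 to 3.87 points. The sign of the difference in means turned with a minimum of 5 reads (1.36 points), of 3 reads (2.24) and with CpGs at least 200 bp apart (9.99). Neither gene passed Fisher's exact test at an adjusted p of 0.05 in promoter (0.678 and 1) or body (0.836 and 1). Nearly the whole body of TLR9 also lies within an overlapping gene on the same strand, ENSG00000173366, which spans the whole promoter window of TLR9 too.

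The sensors of RNA included both members that were called. The promoter of IFIH1, the sensor of long double-stranded RNA, had 60.8% in Neg (CpG SD 37.5) and 37.2% in the targeted library (CpG SD 46.5) over 24 of 64 CpGs. Methylated reads fell from 41 of 63 (95% Wilson interval 52.8 to 75.7%) to 18 of 63 (18.9 to 40.7%), a difference of -36.5 points (95% Newcombe interval -50.9 to -19.2; Fisher's exact test, adjusted p = 0.00166). Within 500 bases after the start, 14 CpGs had 62.5% and 30.4%, with 25 of 40 and 7 of 37 methylated reads, while 8 CpGs within 500 bases before it had 47.9% and 45.8%, with 8 of 15 and 5 of 14. The start of GCA, 156 bp away on the other strand, falls in the same window, so the promoters of both genes were read together.

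The values at IFIH1 rest on few reads. No CpG had more than 4 reads in Neg or 6 in the targeted library, and 5 neighbouring CpGs from 209 to 242 bases inside the gene each had 3 reads in both, methylated in 0 of 3 in the targeted library and in 2 of 3 at 4 of the 5 in Neg. With CpGs at least 200 bp apart, 5 CpGs had 11 of 13 and 1 of 14 methylated reads and the promoter was no longer called (Fisher's exact test, adjusted p = 0.0289; over its alternatives 0.00127 to 1). The call was also lost with a minimum of 3 reads, where the difference was -46.7 points over 10 CpGs (Fisher's exact test, adjusted p = 0.0123). In the window from 250 bp before to 50 bp after the start the direction turned, with 4.76 points over 7 CpGs (Fisher's exact test, adjusted p = 1). Over its body, 51.6 kb on chromosome 2 (163123584 to 163175194), IFIH1 had 65.8% and 70.1% over 101 CpGs (Fisher's exact test, adjusted p = 0.885), but by share of reads the difference was -1.29 points and by means with a minimum of 3 reads -14.5 points. Part 1 of 5 equal parts of the body, which holds the start, was at 73.1% and 57.6%, and the other 4 were each higher in the targeted library, by 8.33 to 25.8 points. The 100 kb on either side of the gene was at 53.2% and 70.9%.

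TLR3, the endosomal receptor for double-stranded RNA, differed in the opposite direction. Its body, 19.2 kb on chromosome 4 (186990065 to 187009227), had 66.7% in Neg (CpG SD 42.3) and 93.3% in the targeted library (CpG SD 22.1) over 60 of 216 CpGs. Methylated reads rose from 101 of 159 (95% Wilson interval 55.8 to 70.6%) to 102 of 116 (80.8 to 92.7%), and Fisher's exact test gave an adjusted p of 2.32e-05. Of the 60 CpGs, 25 were higher, 3 lower and 32 equal. Methylation was higher in each of 5 equal parts of the body, by 66.0 points in part 3 (10 CpGs, 5 of 30 and 14 of 17 methylated reads) and by 7.27 to 38.6 points in the others. The surroundings differed less, with 76.0% and 81.3% over the 100 kb on either side, and chromosome 4 by 9.22 points. With CpGs at least 200 bp apart, 29 CpGs of the body had 58.2% and 87.5%, which was no longer called (Fisher's exact test, adjusted p = 0.0189; largest over its alternatives 0.488, where 5 CpGs were left).

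The promoter of TLR3 had 18.8% and 62.5% over 8 of 23 CpGs, with 6 of 19 and 18 of 21 methylated reads, and was not called (Fisher's exact test, adjusted p = 0.0118; over the alternatives that could test it 0.00978 to 0.753). Too few CpGs were left to test it with a minimum of 5 or 3 reads, with at least 10 CpGs, or from 250 bp before to 50 bp after the start. In the targeted library, most of these reads sat on the first 3 capital CpGs of the printed sequence, each with 5 of 5 methylated reads, and Neg had 1 of 4 over the 3. These 3 CpGs lie from -303 to -293 bases from the start, so the same fragments may be counted at each of them. The CpGs at -628 and -542 bases from the start were at 0% in both libraries, and the CpG 725 bases inside the gene was at 100% in both.

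RIGI, which senses short RNA with a triphosphate end, kept an unmethylated start. Over the 10 CpGs within 500 bases after the start, 1 of 65 reads was methylated in Neg and 0 of 71 in the targeted library, and in the 500 bases before it 1 of 61 and 3 of 61. Farther into the gene the level changed sharply, with 67.1% and 92.4% over 11 CpGs from 500 to 1000 bases inside. Methylated reads there were 33 of 42 in Neg and 36 of 40 in the targeted library, a smaller gap than that of the means. Over the whole window RIGI had 22.1% and 33.2% (35 CpGs; Fisher's exact test, adjusted p = 0.726), but 35 of 169 and 43 of 177 methylated reads, a difference of 3.58 points. The direction of the means turned with a minimum of 5 reads (-3.11 points over 14 CpGs) and of 3 reads (-1.91 points over 21 CpGs). The body, 70.9 kb on chromosome 9 (32455300 to 32526206), had 73.9% and 82.1% over 295 CpGs (Fisher's exact test, adjusted p = 0.00309). Its difference of 8.18 points stood beside 4.28 points in the surrounding 100 kb and 6.21 points on chromosome 9. With CpGs at least 200 bp apart Fisher's exact test gave an adjusted p of 0.0538 (over its alternatives 3.23e-06 to 1). A longer gene on the same strand, ENSG00000288684, overlaps the body and spans the whole promoter window of RIGI.

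**Figure D3:**
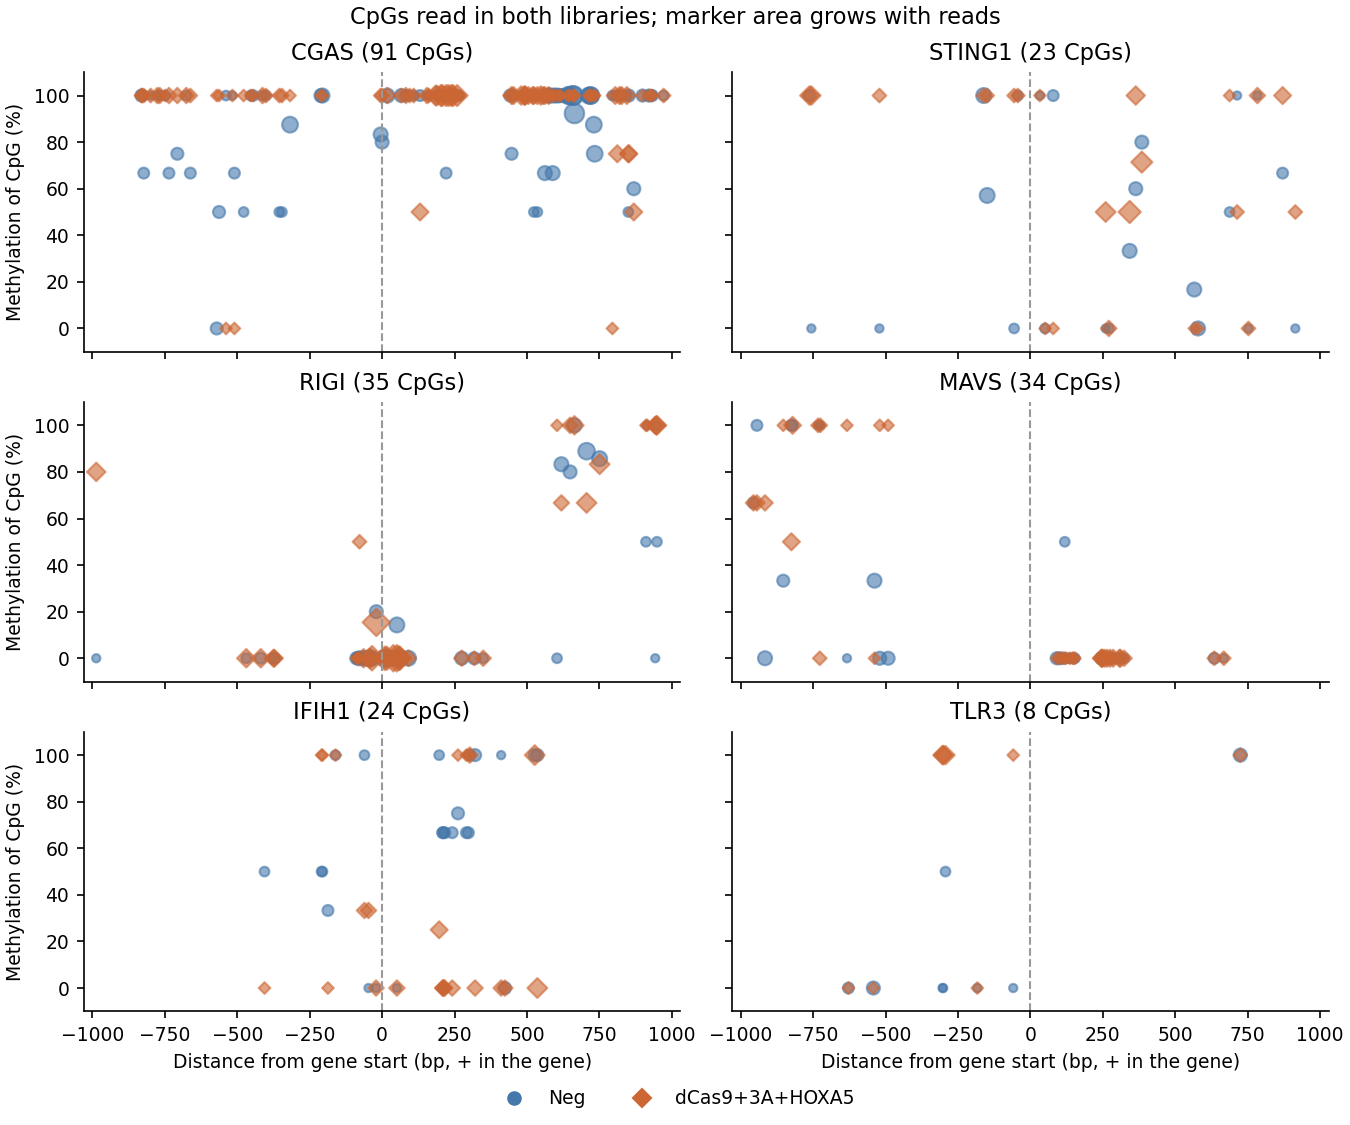
Methylation in percent (vertical axis) of each CpG read in both libraries, by distance in bp from the gene start (horizontal axis, positive inside the gene), for 6 promoters in Neg (circles) and dCas9+3A+HOXA5 (diamonds); the marker area grows with the number of reads. CGAS was high across the window, RIGI and MAVS were near 0 just after the start, IFIH1 was lower in dCas9+3A+HOXA5 inside the gene, and TLR3 was higher before the start.

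Both adaptors had means above those in Neg, without a call. The promoter of STING1, the receptor of the dinucleotide that CGAS makes, had 46.3% in Neg (CpG SD 43.9) and 64.0% in the targeted library (CpG SD 43.2) over 23 of 33 CpGs. Methylated reads were 34 of 69 (95% Wilson interval 37.8 to 60.8%) and 48 of 68 (58.9 to 80.1%), a difference of 21.3 points (95% Newcombe interval 4.90 to 36.2; Fisher's exact test, adjusted p = 0.0842). The difference was largest before the start. There, 4 CpGs within 500 bases had 12 of 18 methylated reads in Neg and 8 of 8 in the targeted library, and 3 CpGs farther out 3 of 5 and 12 of 12. Within 500 bases after the start, 8 CpGs had 46.7% and 46.4%. The body of STING1, 7.40 kb on chromosome 5 (138855118 to 138862520), had 74.8% and 80.5% over 93 CpGs (Fisher's exact test, adjusted p = 0.0394), and the surrounding 100 kb differed by 6.61 points. With CpGs at least 200 bp apart the body differed by -5.34 points (23 CpGs, Fisher's exact test, adjusted p = 1; over its alternatives from 0.0316).

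For MAVS, the mitochondrial adaptor, the 19 CpGs within 500 bases after the start had 1 of 54 methylated reads in Neg and 0 of 48 in the targeted library. The 12 CpGs more than 500 bases before the start had 61.1% and 70.8%, with 17 of 37 and 19 of 27 methylated reads. Over the whole promoter window MAVS had 23% and 27.9% (34 of 122 CpGs; interval of the difference in reads -4.93 to 19.2 points), and with a minimum of 3 reads the means differed by -1.38 points. Its body, 29.3 kb on chromosome 20 (3827446 to 3856770), had 80.8% and 85.5% over 429 CpGs (Fisher's exact test, adjusted p = 0.00125), with a difference of 4.61 points beside 2.06 points in the surrounding 100 kb and 3.53 points on chromosome 20. With CpGs at least 200 bp apart Fisher's exact test gave an adjusted p of 0.384 (over its alternatives 1.52e-05 to 0.418).

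**Figure D4:**
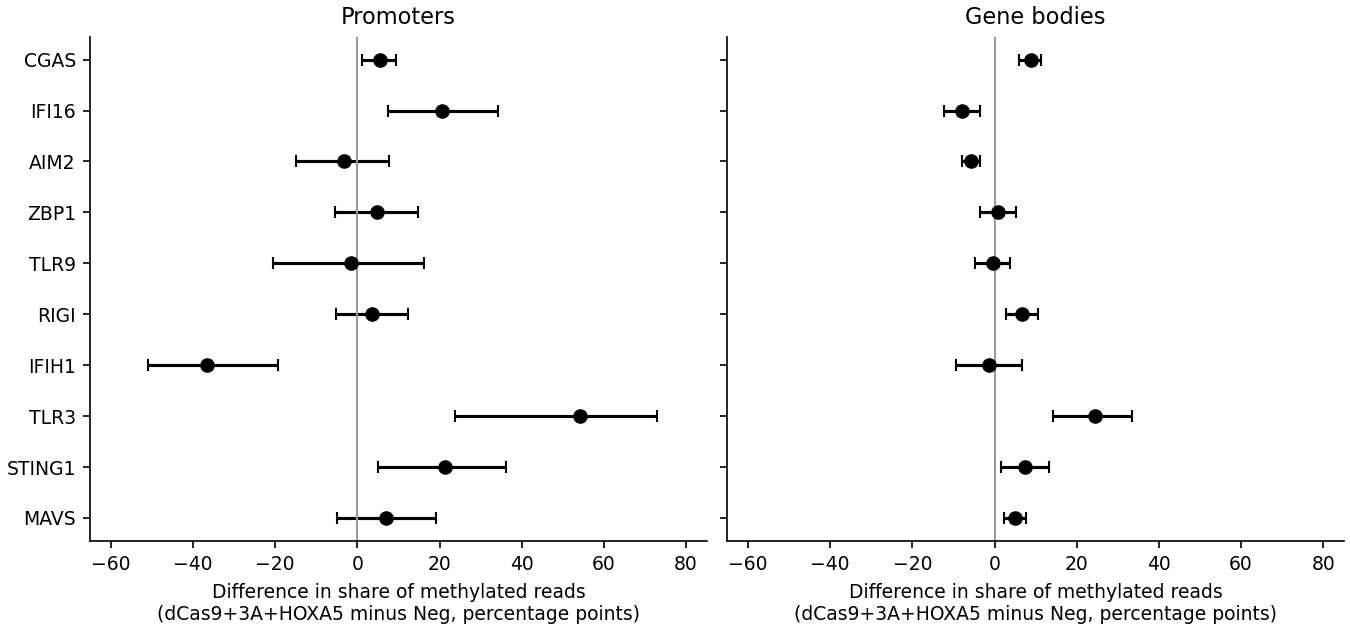
Difference in the share of methylated reads (dCas9+3A+HOXA5 minus Neg, percentage points, horizontal axis) for the promoters (left) and bodies (right) of the 10 genes; points are the difference between the 2 libraries and bars the 95% Newcombe interval, which covers the counting of reads only. Intervals lie below 0 at the promoter of IFIH1 and the bodies of IFI16 and AIM2, above 0 at the promoters of TLR3, STING1, IFI16 and CGAS and the bodies of TLR3, CGAS, RIGI, STING1 and MAVS, and reach across 0 at the others.

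In the 300 bases from 250 before to 50 after the canonical start, MAVS held 34 CpGs, RIGI 27 and CGAS 19, beside a median of 23 over 19881 protein-coding genes. Neither MAVS nor TLR3 had a CpG in this stretch that was read in both libraries. AIM2 and TLR9 held 2 CpGs each, IFI16 held 3, and TLR3, STING1, ZBP1 and IFIH1 between 5 and 12. The same stretches were searched on both strands for 4 motifs. The interferon-stimulated response element, spelled as TTTC, any 2 bases and TTTC, was found at AIM2, IFIH1, TLR3 and ZBP1 (4 of 10 genes) and in 3.29% of all the promoters. The gamma-activated site, TTCNNNGAA, was found at TLR3 and in 6.49% of all. The GC box GGGCGG was found at IFIH1, MAVS, RIGI and TLR3 and in 61.4% of all. The letters TATAAA of a TATA box were found at IFI16, STING1 and TLR9 and in 9.62% of all.

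The wider pathway was described by 68 further genes in 5 lists. Of 65 promoters tested, 1 was called higher and 0 lower, with a median difference of 1.19 points. That was the promoter of NLRX1, a mitochondrial protein that restrains MAVS signalling, with 57.3% in Neg and 86.1% in the targeted library over 25 CpGs (Fisher's exact test, adjusted p = 0.000421). At the start of its canonical transcript NLRX1 had 16.1% and 17.1% over 66 CpGs (Fisher's exact test, adjusted p = 0.272; over its alternatives 0.000307 to 1). Within 500 bp of the annotated start NLRX1 was not called either, with a difference of 39.4 points (Fisher's exact test, adjusted p = 0.0461). MX2, an interferon-induced restriction factor chosen after its values were seen, was called lower at its canonical start (60.2% and 20.6% over 21 CpGs; Fisher's exact test, adjusted p = 0.00284), where 0.606% of all canonical promoters were called lower. At its annotated start MX2 had 58.4% and 22% over 22 CpGs (Fisher's exact test, adjusted p = 0.0123; over its alternatives 0.002 to 0.985), and with a minimum of 3 reads it differed by 6.07 points. Its body had 60.3% and 45.1% over 462 CpGs (Fisher's exact test, adjusted p = 3.12e-12).

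By role, 0 of 15 promoters of other sensors, 0 of 11 of adaptors, kinases and transcription factors, 0 of 9 of inflammasome and cell death genes and 0 of 19 of interferons and their response genes were called in either direction, and 1 of 11 regulators was. By adjusted p under 0.05 in Fisher's exact test, 6 of the 65 promoters were higher and 5 lower. None of the 67 bodies tested was called, while 22 were higher and 7 lower when Fisher's exact test was read at an adjusted p under 0.05, with a median difference of 3.26 points. These values stand beside 4.18 points over all bodies and the shares of all genes given above.

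**Figure D5:**
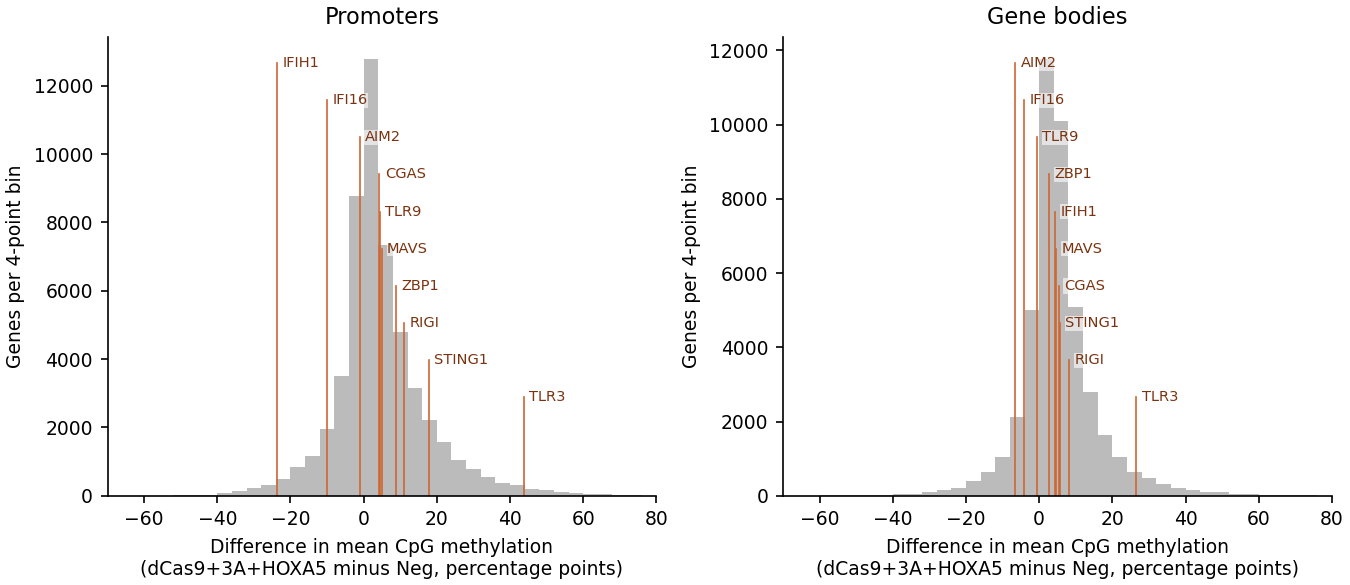
Number of genes (vertical axis) by the difference in mean CpG methylation (dCas9+3A+HOXA5 minus Neg, percentage points, in bins of 4 points) for all promoters (left) and bodies (right) tested; lines mark the 10 genes. The quartiles over all genes are -1.45 and 9.64 points for promoters and 0.315 and 9.04 for bodies. The promoters of IFIH1, IFI16, RIGI, STING1 and TLR3 and the bodies of AIM2, IFI16, TLR9 and TLR3 lie outside them. Quartiles by definition leave about as many genes outside as inside, so this place alone does not set a gene apart.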

How the data were processed

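CpG methylation had been measured by WGBS in 2 libraries of HEK293T cells, grouped by sample title into Neg and dCas9+3A+HOXA5. Per the study's methods, the authors used BSMAP 2.90 to trim reads, to align these to hg19 and, through the BSratio module, to call methylation. How duplicate and multiply mapped reads were treated was not given in the sources used here. Per the file headers, the deposited files hold counts of C and of C or T per CpG, both strands combined, an estimated count that allows for variants seen on the other strand, and the fraction of the C count over that estimated count. The stated minimum of 5 reads was not applied in the deposited files and was an alternative here. The deposited fraction gave levels and the counts gave Fisher's exact tests (scipy 1.17.1, Python 3.11.15). The code was also run on simulated reads, drawn independently at each CpG. These lack the sharing of fragments between neighbouring CpGs, so this run could not check the p-values for the real reads. Neg held 89774283 summed reads and dCas9+3A+HOXA5 46703423 on chromosomes 1 to 22, X and Y. GENCODE release 44, mapped to GRCh37, gave gene positions, whose coordinates are those of hg19, and canonical starts from its Ensembl canonical transcripts. Thresholds are those the study set for CpG islands, with Fisher's exact test in place of its analysis of variance. The rule for named genes took all 10 members, HOXA5 as the check and, of the pathway lists, called genes. The genes, the lists and the rule were chosen with earlier results of these data known. Wilson and Newcombe intervals are at 95%. Reads from overlapping genes cannot be told apart.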

Additional observations from a re-analysis of the deposited data

How the results depend on the processing

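With 1 library per group and between 8 and 91 CpGs per promoter, depth limits every value, and a minimum of 5 reads left 2 of the 10 promoters and 8 of the 10 bodies to test. The spacing of CpGs by at least 200 bp was chosen after seeing the data, unlike the rest, and allowed fewer than 5 CpGs in a window. With spacing, the promoters of TLR9 and TLR3 were tested on 4 CpGs each. No paired analysis was possible because Neg and dCas9+3A+HOXA5 hold 1 library each, which also means that none could be left out. The cause of the changes below was not tested.

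The following differences changed sign. A minimum of 5 reads reversed the promoter of RIGI (-3.11 points) and the body of TLR9 (1.36). A minimum of 3 reads reversed the promoters of AIM2 (3.43), RIGI (-1.91), MAVS (-1.38) and MX2 (6.07) and the bodies of TLR9 (2.24) and IFIH1 (-14.5). The share of summed reads reversed the promoters of IFI16 (20.7) and TLR9 (-1.67) and the body of IFIH1 (-1.29). Windows of 500 bp either side reversed the promoters of AIM2 (2.81) and TLR9 (-14.7), and that from 250 bp before to 50 bp after reversed IFIH1 (4.76). Spacing reversed the promoter of TLR9 (-21.3) and the bodies of TLR9 (9.99) and STING1 (-5.34).

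Of the 10 promoters, 1 was called lower, that of IFIH1, with -23.6 points. This count was 0 with a minimum of 5 reads, where IFIH1 had no CpG left and was not tested. It was also 0 with a minimum of 3 reads, from 250 bp before to 50 bp after, and with spacing. In these 3 settings IFIH1 was tested and differed by -46.7, 4.76 and -50 points. Calls of higher promoters went from 0 to 1 (TLR3) with protein-coding genes alone. Of the 10 bodies, 1 was called higher, that of TLR3, with 26.5 points. The count was 0 with a minimum of 5 reads, where this body had no CpG left and was not tested. With a minimum of 3 reads (34.3 points over 5 CpGs) and with spacing (29.3 points) the count was also 0.

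Of all 53244 promoters tested, 1230 were called higher and 313 lower. The number tested changed with the setting, so each count is given with it. With a minimum of 5 reads, 252 and 103 of 12961 were called, and with 3 reads 742 of 34193 were higher. Of 53244, 513 were lower by share of reads, and 2013 were higher and 555 lower at 10 points. Among 18577 protein-coding genes 303 were higher and 99 lower. Within 500 bp 764 of 43719 were higher. From 250 bp before to 50 bp after, 270 and 172 of 24304 were called. With spacing, which allowed fewer CpGs in a window, 54 and 4 of 52158 were called. Of all 44567 bodies tested, 1699 were called higher and 238 lower. With 5 reads 888 and 127 of 25357 were called, and at 10 points 4974 and 592 of 44567. Among 19428 protein-coding genes 390 were higher and 49 lower. Without the promoter window 151 of 35338 were lower, and with spacing 81 of 40168.

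In the pathway lists, 1 promoter was called higher and 0 lower. There were 0 higher from 250 bp before to 50 bp after (33 tested), at the canonical start (66) and with spacing (65). Within 500 bp (59 tested) the 1 higher promoter was no longer that of NLRX1. There was 1 lower at 10 points, within 500 bp and at the canonical start. Of their bodies 0 were called. Higher bodies were 1 with 5 reads, without the promoter window or with spacing, 2 with 3 reads, 3 by share of reads and 7 at 10 points, and lower ones were 1 with 5 reads and 2 at 10 points.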
